A study of Mus musculus with 4 samples.

Results

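A group of 10 genes that stood higher in insulin-producing beta-like cells of diabetic db/db mice than of control mice is described here: Csn3, Serpina7, C1qtnf1, Tm4sf20, Ache, Ankrd34b, Slc5a10, Amigo2, Cd81 and Cd24a. They are 10 of the 30905 genes counted, and all 10 were found by symbol. They were chosen by their measured levels in these same counts, high in db/db beta-like cells and low in control ones, with no numeric threshold, so their ratios to the control are a description and carry no test. The data are unique molecular identifier (UMI) counts from single cells of mouse pancreatic islets, captured with 10x Genomics 3′ chemistry, with 1 library for each of 4 groups. The groups were late db/db with intervention at 98 days of age, late db/db at 98 days, early db/db at 70 days, and a normal control at 98 days. Male mice were bought at 8 weeks, and db/db mice, which lack a working leptin receptor, were included once blood glucose passed 10 mmol/l. The intervention is named by an unexpanded abbreviation alone, and what it consisted of is not given. All 4 groups, the control included, are labelled db/db with C57BL/KsJ as strain, whereas C57BL/6 mice appear in the growth protocol too. Strain and disease can therefore not be told apart between the control and the other libraries. The number of mice behind a library is not stated, and although the name of the early db/db matrix looks like that of another control, the sample label was followed.

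Beta cells secrete insulin in response to glucose. In diabetic islets they are known to lose part of their mature gene programme, and genes that a mature beta cell keeps low can appear. Secreted and surface proteins are of use in this tissue because they can be seen from outside the cell, in blood or by antibodies. Of the 10 genes, 3 encode secreted proteins: Csn3 encodes kappa-casein, which stabilises casein micelles in milk, Serpina7 encodes thyroxine-binding globulin, a carrier of thyroid hormone in blood, and C1qtnf1 encodes the C1q and TNF related protein CTRP1. Another 6 encode proteins of the cell surface: the acetylcholine-degrading enzyme acetylcholinesterase (Ache), the sodium-coupled sugar transporter gene Slc5a10, the leucine-rich repeat adhesion gene Amigo2, the tetraspanin gene Cd81, known as a mark of immature mouse beta cells, the gene of the GPI-anchored sialoglycoprotein CD24 (Cd24a), and Tm4sf20 of the TM4SF family of membrane proteins with 4 membrane spans. Ankrd34b encodes an ankyrin repeat protein that is not known to be secreted, so "secreted and surface" does not describe it.

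Cells were kept with at least 1000 UMIs and 500 genes, clustered, and named from marker genes. Kept cells numbered 4906 with the intervention, 5983 in late and 4616 in early db/db and 4458 in the control, and beta-like cells 3264, 803, 1379 and 2230 in that order. The median beta-like cell held 41544 UMIs with the intervention, 87192 in late and 57153 in early db/db and 49416 in the control, so late db/db cells were read most deeply. Ins2, the main mouse insulin gene, took 35.8%, 37.5%, 42.5% and 47.0% of beta-like UMIs in the same order. Somatostatin (Sst), the hormone of delta cells, took between 0.00510% (late db/db) and 0.0165% (early db/db), with 0.0110% with the intervention and 0.00905% in the control. The libraries shared between 8 and 21 cell barcodes per pair. Levels are given as CPM, the UMIs of a gene per 1000000 UMIs of the summed class, leaving out mitochondrial genes and 7 hormone genes. Each group being 1 library, nothing here was tested and no replicate check exists. All 95% intervals cover counting error only, and PCR duplicates are removed by the UMIs but the spread between mice is not seen.

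Promoter sequences of 6 of the 10 genes were at hand (RefSeq, GRCm38.p6), those of Csn3, C1qtnf1, Tm4sf20 and Cd24a not being used here, and 3 are shown because their genes differ in which islet cells hold them: Serpina7, Ankrd34b and Ache. Each window runs from 250 bases before to 50 bases after a transcript start, on the strand of the gene, and capitals mark the motifs TATAAA and CACGTG. Serpina7 lies at chrX:139079257-139085236 on the minus strand, Ankrd34b at chr13:92425896-92441658 and Ache at chr5:137287519-137294466, both on the plus strand.
Serpina7, chrX:139085170-139085469, minus strand: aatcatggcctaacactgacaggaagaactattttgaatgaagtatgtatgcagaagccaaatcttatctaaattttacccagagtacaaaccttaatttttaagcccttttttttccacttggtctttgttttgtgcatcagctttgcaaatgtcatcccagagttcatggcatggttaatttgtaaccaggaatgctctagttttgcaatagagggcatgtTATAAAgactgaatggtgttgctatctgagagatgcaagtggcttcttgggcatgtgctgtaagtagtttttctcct
Ankrd34b, chr13:92425719-92426018, plus strand: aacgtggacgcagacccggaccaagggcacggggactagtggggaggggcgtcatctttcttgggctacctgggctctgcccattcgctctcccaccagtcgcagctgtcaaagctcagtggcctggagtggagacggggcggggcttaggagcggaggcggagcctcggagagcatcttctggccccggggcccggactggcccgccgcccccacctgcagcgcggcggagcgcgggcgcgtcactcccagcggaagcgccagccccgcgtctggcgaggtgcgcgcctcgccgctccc
Ache, chr5:137288004-137288303, plus strand: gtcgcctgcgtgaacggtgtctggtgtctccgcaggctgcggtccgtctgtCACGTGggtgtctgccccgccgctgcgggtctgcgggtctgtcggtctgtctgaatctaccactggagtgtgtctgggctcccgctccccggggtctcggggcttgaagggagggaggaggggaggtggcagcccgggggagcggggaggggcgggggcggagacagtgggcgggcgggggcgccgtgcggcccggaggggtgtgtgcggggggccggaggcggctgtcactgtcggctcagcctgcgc
The Serpina7 window was 38.0% G and C, against 72.3% for Ankrd34b and 74.0% for Ache. Its TATAAA begins 27 bases before this transcript start, and the other 2 windows hold none. The Ache window holds CACGTG, which reads the same on both strands and was found in 7.15% of the 32851 promoters of the table, while TATAAA was found on either strand in 13.6%. The motifs TGACGTCA, GTAAACA, TTCNNNGAA and TGATGCAA, searched on both strands, were in none of the promoters available for the 10 genes. A match is a description of letters and not a binding site.

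The 3 genes of secreted proteins were all far lower in control beta-like cells than in the other libraries. Csn3 had 2658 UMIs with the intervention, 1883 in late and 2865 in early db/db and 9 in the control, or 56.4, 67.3, 100.3 and 0.294 CPM. Serpina7 stood at 477 CPM with the intervention, 396 in late and 633 in early db/db and 11.3 in the control. C1qtnf1 stood at 78.0, 84.7, 74.8 and 0.588 CPM in the same order, the last on 18 UMIs. The 3 db/db libraries lay close to each other for C1qtnf1, whereas Csn3 and Serpina7 were highest in early db/db. The log2 ratio of late db/db to control was 7.84 for Csn3 (95% interval 6.91 to 8.97), 5.14 for Serpina7 (4.98 to 5.29) and 7.17 for C1qtnf1 (6.51 to 7.93).

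Among the genes of surface proteins, Tm4sf20, Ache and Cd24a were close to 0 in control beta-like cells, while Amigo2 and Cd81 were measured there too. Tm4sf20 had 1293 UMIs with the intervention, 1598 in late and 1489 in early db/db and a single UMI in the control, which is 27.5, 57.1, 52.2 and 0.0327 CPM. Ache stood at 72.3 CPM with the intervention, 95.9 in late and 105 in early db/db and 1.60 in the control. Cd24a stood at 104, 177, 244 and 4.15 CPM in that order. For Tm4sf20 the late db/db to control log2 ratio of 10.77 rests on that 1 UMI, with an interval from 8.29 to 16.08. It was 5.91 for Ache (5.50 to 6.34) and 5.41 for Cd24a (5.16 to 5.68). With beta cells defined by their share of insulin instead of by cluster, these 3 ratios were 8.51, 5.04 and 3.77.

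Slc5a10, whose product carries sugars into cells with sodium and is known from the kidney, had the widest spread among the db/db libraries. Its level was 17.8 CPM with the intervention, 38.5 in late and 79.9 in early db/db and 1.99 in the control. Amigo2 stood at 30.5, 63.1, 51.3 and 21.2 CPM, and Cd81 at 395, 408, 613 and 44.2 CPM in the same order. The intervention level of Amigo2 was nearer to the control than to late db/db, and the late db/db to control log2 ratio was 1.57 (1.44 to 1.71), the smallest of the 10. Those of Slc5a10 and Cd81 were 4.27 (3.90 to 4.67) and 3.21 (3.12 to 3.29). Subtracting estimated free RNA took Tm4sf20, Ache, Ankrd34b, Cd81 and Cd24a to 0 in control beta-like cells, where the part of free RNA in the counts was not otherwise tested. Ankrd34b, the gene of the ankyrin repeat protein, stood at 51.7, 49.7, 42.2 and 0.490 CPM, the last on 15 UMIs, a log2 ratio of 6.67 (5.94 to 7.51) for late db/db to control. With beta cells defined by insulin share the ratio was 5.67 for Ankrd34b and 2.54 for Cd81.

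**Figure D1:**
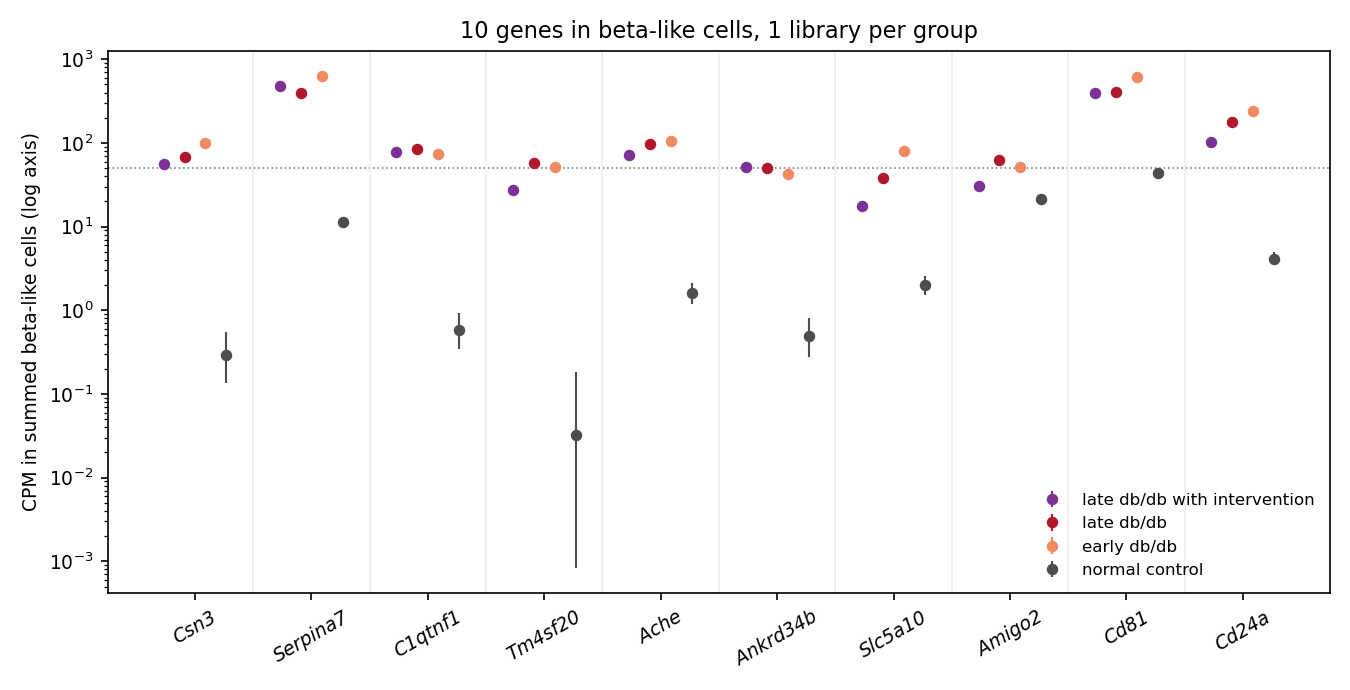
CPM of the 10 genes in summed beta-like cells on a log axis, 1 point per library with 95% counting intervals, in the order late db/db with intervention, late db/db, early db/db and normal control. The dotted line marks 50 CPM; the control lies lowest for all 10 genes, between 0.0327 CPM for Tm4sf20 and 44.2 CPM for Cd81.

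A comparison took in genes that reached 50 CPM in either library and 50 UMIs over the pair, and counted those at least 2-fold apart. In late db/db over control, 8 of the 10 genes entered and 8 were higher, where 4.47% of the 4188 genes that entered were higher. In early db/db over control the counts were 9 and 9, with 5.38% of 4257 genes higher. With the intervention over control they were 7 and 7, with 4.41% of 4175 genes higher. The first 2 contrasts chose the genes and the third shares the control library, so nothing is read from these counts. Ankrd34b and Slc5a10 did not enter the first comparison, Ankrd34b the second, and Tm4sf20, Slc5a10 and Amigo2 the third, because they stayed under 50 CPM.

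Between late and early db/db, which differ in age as well as stage, the genes went both ways. Of 9 that entered, 0 were at least 2-fold higher, where 0.203% of the 3448 genes that entered were higher. A single gene, Slc5a10, was at least 2-fold lower, where 0.580% were lower. The Slc5a10 log2 ratio of late to early was -1.05 (-1.16 to -0.95), and -0.86, under 2-fold, with all UMIs as denominator. Serpina7, Cd81, Csn3 and Cd24a were also lower in late db/db, at log2 ratios of -0.68, -0.59, -0.58 and -0.47, and Ache at -0.14. C1qtnf1, Tm4sf20 and Amigo2, which entered too, were higher in late db/db, by 0.13 for Tm4sf20 to 0.30 for Amigo2. Ankrd34b stood at 0.24 but stayed under 50 CPM in both libraries and did not enter. The median over the 9 was -0.47, against -0.07 over all genes that entered.

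The intervention library was set against late db/db of the same age. Of 9 genes that entered, 2 were at least 2-fold lower with the intervention, Tm4sf20 at a log2 ratio of -1.06 (-1.16 to -0.95) and Amigo2 at -1.05 (-1.15 to -0.95), where 0.465% of 3443 genes were lower. None was 2-fold higher, where 0.813% of the genes were. Slc5a10 did not reach 50 CPM in either library and stood at -1.12 (-1.25 to -0.98), and at -0.84 as a mean over cells. Cd24a was at -0.77, Ache at -0.41, Csn3 at -0.25 and C1qtnf1 at -0.12. Cd81 was at -0.05 (-0.08 to -0.01) and Ankrd34b at 0.06 (-0.04 to 0.15), and Serpina7 was higher with the intervention at 0.27 (0.24 to 0.30). The median over the 9 was -0.25, against -0.01 over all genes that entered. No gene came back to the control level: the intervention to control log2 ratios ran from 0.53 for Amigo2 to 9.72 for Tm4sf20.

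Genes on the other strand overlap 7 of the 10, and no source used here states whether counting used the strand. Fam83g, opposite Slc5a10, had 825 UMIs with the intervention, 332 in late and 268 in early db/db and 1507 in control beta-like cells. Slc5a10 had 836, 1077, 2282 and 61 UMIs in the same cells, so the 2 genes ran opposite ways. Pced1b, opposite Amigo2, had 201, 143, 156 and 213 UMIs. The antisense genes Gm11747 of C1qtnf1 and C030017D09Rik of Ankrd34b had at most 29 UMIs in any library, and none in the control. Grap, also opposite Slc5a10, had at most 52 UMIs, 1700066N21Rik opposite Csn3 and Gm42456 opposite Ache at most 1, and R74862 opposite Cd81 was not analysed here.

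To compare cells of unequal depth, each beta-like cell was thinned to 8000 UMIs outside mitochondrial and hormone genes. This used 2484 cells with the intervention, 754 of late db/db, 1298 of early db/db and 1868 of the control, and left out 780, 49, 81 and 362 shallower cells. The genes then fell into broad and concentrated ones, by how many cells held the UMIs. The Fano factor, the variance of the UMIs per cell over their mean, is 1 when UMIs are spread over like cells by chance alone.

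Csn3, Tm4sf20 and Slc5a10 were concentrated in few cells. Csn3 had a UMI in 15.3% of cells with the intervention, 16.8% in late and 19.2% in early db/db and 0.268% (5 cells) in the control. The 10% of cells with most UMIs held 86.7%, 84.8% and 87.1% of its UMIs in the 3 db/db libraries, with up to 27 UMIs in 1 early db/db cell and Fano factors of 5.64, 5.28 and 8.70. Tm4sf20 was found in 9.58%, 20.2% and 18.2% of db/db cells and in 0 of 1868 control cells, which allows up to 0.197% of cells with a UMI at this depth, and before thinning 1 UMI was found in the control. For Slc5a10 the shares were 8.01%, 15.5%, 25.4% and 1.61%, and its Fano factors in the db/db libraries were 3.03, 2.73 and 4.01. For Slc5a10, the 10% of cells with most UMIs held 100%, 81.1% and 70.6% of them in those libraries. The 100% is fixed by the 8.01% of intervention cells with a UMI, which is under 10%, and does not measure concentration.

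C1qtnf1, Ache, Ankrd34b, Amigo2 and Cd24a were spread more widely than Csn3, Tm4sf20 and Slc5a10, with Fano factors between 1.12 and 1.74 in the db/db libraries. The Fano factor lies nearer 1 for genes with few UMIs, so these values are not set against those of abundant genes. C1qtnf1 had a UMI in 40.7%, 43.9%, 38.8% and 0.535% of cells of the intervention, late db/db, early db/db and control libraries. Ankrd34b had one in 31.4%, 29.7%, 26.2% and 0.268%, and Ache in 34.9%, 44.2%, 49.1% and 0.803%. Cd24a was found in 48.0%, 67.0%, 76.1% and 2.30% of cells. If its UMIs were spread evenly, 51.9% of late db/db cells would lack C1qtnf1, and 56.1% did. For Cd24a in early db/db cells these values were 15.5% and 23.9%.

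Cd81 and Serpina7 were abundant and yet missing from many cells. Cd81 averaged 3.19 UMIs per thinned cell with the intervention, 3.41 in late and 5.03 in early db/db and 0.370 in the control. Evenly spread UMIs would leave 4.12%, 3.30%, 0.652% and 69.0% of cells without one, whereas 34.7%, 30.4%, 26.3% and 86.6% had none. In the control, the 10% of cells with most UMIs held 90.8% of all Cd81 UMIs. Serpina7 was absent from 25.7%, 28.1%, 17.9% and 93.2% of cells, against 2.26%, 4.18%, 0.607% and 91.1% if evenly spread, and single intervention cells held up to 112 UMIs. Actb, a cytoskeletal gene with 4.603, 5.53, 5.95 and 8.78 UMIs per thinned cell, was absent from 2.82%, 1.72%, 2.23% and 0.214% of the same cells.

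**Figure D2:**
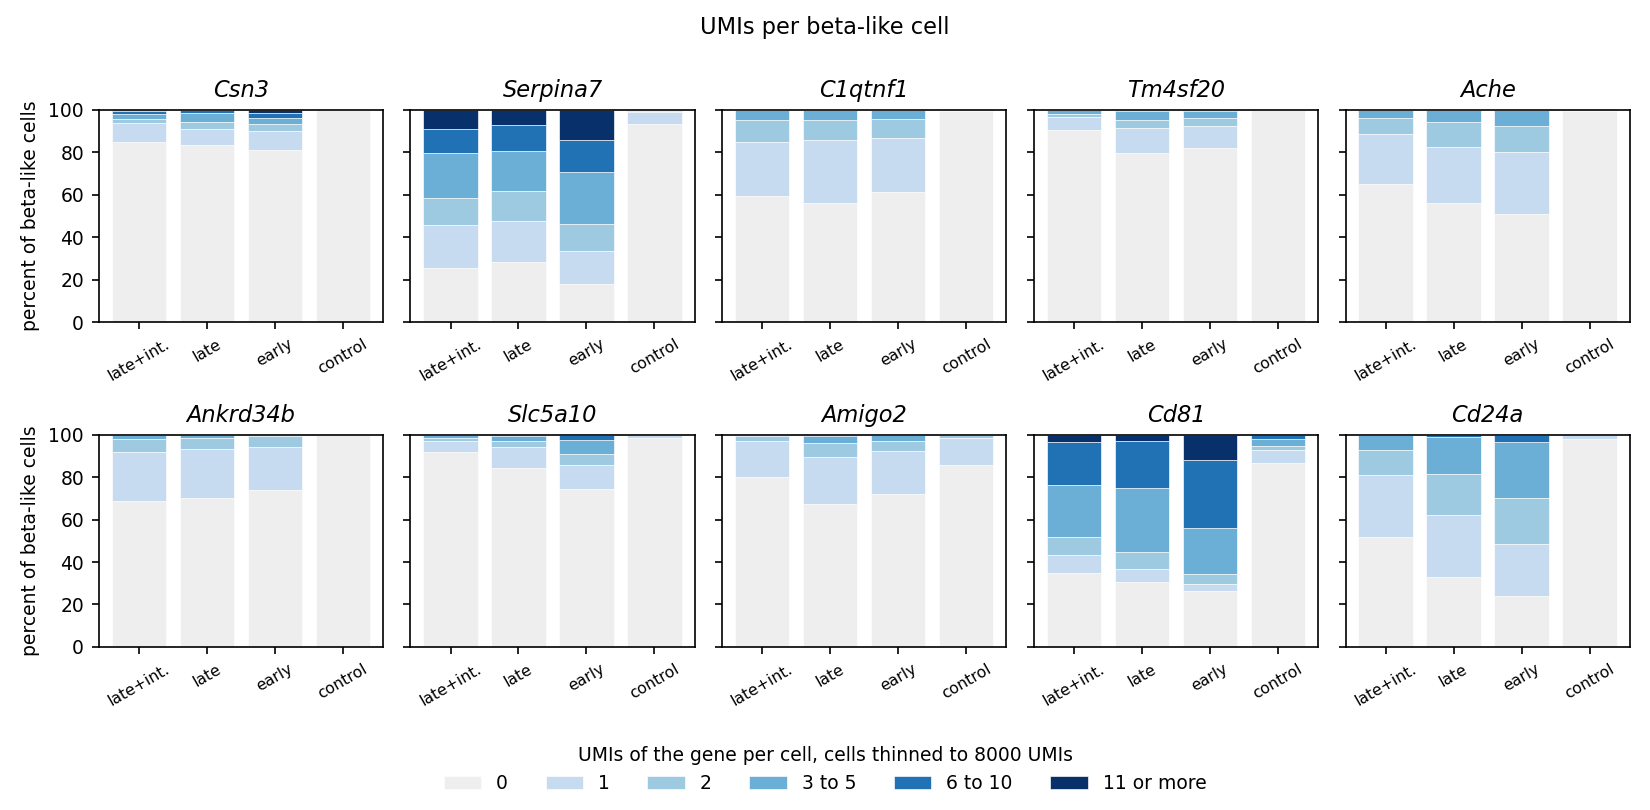
Percent of beta-like cells with 0, 1, 2, 3 to 5, 6 to 10 and 11 or more UMIs of each gene, after thinning to 8000 UMIs, with 1 bar per library in the order late db/db with intervention, late, early and control. Cd81 shows both many cells with none and many with 3 or more in the db/db libraries, while C1qtnf1, Ankrd34b and Ache cells mostly hold 0 to 2.

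On the median over pairs, the 10 genes were found together about as often as their separate shares give. The median thinned beta-like cell held a UMI of 3 of the genes with the intervention, 4 in late and 4 in early db/db and 0 in the control. Cells with 3 or fewer made up 52.4%, 33.3%, 26.8% and 99.9%, and cells with 8 or more 0.322%, 0.796%, 0.847% and 0%. Over the 45 pairs, the median Pearson r across cells of log2(UMI+1) was -0.007 with the intervention, 0.014 in late and 0.012 in early db/db and -0.003 in the control. The median ratio of cells with both genes to the product of the 2 shares was 1.01, 1.01, 1.01 and 0.782 in the same order, the last on very few cells. The pair most alike was Csn3 with Tm4sf20 with the intervention (r of 0.155) and in early db/db (0.133), and Serpina7 with Cd81 in late db/db (0.168). In the control it was Csn3 with Ache at 0.239, where 1 cell held both and 5 cells held Csn3. The pair most unlike in early db/db was Slc5a10 with Cd24a at -0.179, where 16.5% of cells held both and the shares alone give 19.4%. All these r are weak, in sparse counts of cells that share a library, and are given as a description.

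Pairs with genes outside the group were read in the same cells. For Slc5a10, r with Cck, the cholecystokinin gene, was 0.249 over 754 late db/db cells and 0.319 over 1298 early db/db cells, and 19.9% of early db/db cells held both where the shares give 14.7%. Its r with Slc2a2, the glucose transporter of mature beta cells, was 0.197 and 0.266 in those libraries. For Serpina7 in the intervention library, r was -0.262 with Mafa, a transcription factor of mature beta cells, and -0.212 with Slc2a2. Cd81 had an r of -0.346 with Mafa and -0.292 with Slc2a2 over the 1868 control cells. The values of these genes come from different libraries and are not set against each other.

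**Figure D3:**
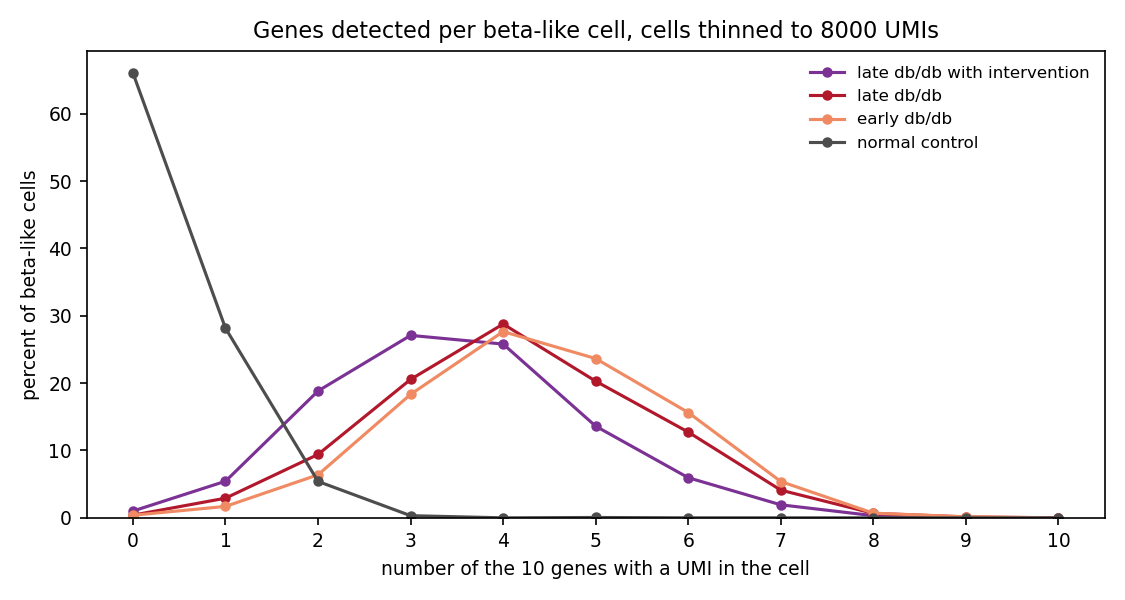
Percent of beta-like cells (vertical axis) by the number of the 10 genes with a UMI in the cell (horizontal axis), after thinning to 8000 UMIs, 1 line per library. The median is 3 with the intervention, 4 in late and early db/db and 0 in the control.

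Beta-like cells formed 5 clusters, made without the 10 genes and without hormone genes. Clusters 21 and 25 held 17 and 12 cells, all but 1 of them late db/db, and the intervention library was split among the other 3. Cluster 5 held 575 intervention cells with 80.6% of late db/db and 96.3% of early db/db beta-like cells, cluster 4 held 469 intervention cells with 92.4% of control cells, and cluster 3 held the other 2220 intervention cells. Mafa stood at 30.3, 110 and 242 CPM in the intervention cells of clusters 5, 3 and 4, and Cck at 2615, 1017 and 170 CPM. Tm4sf20 followed Cck, at 72.9 CPM in cluster 5, 16.8 in cluster 3 and 4.83 in cluster 4. Csn3 stood at 86.2, 52.4 and 19.5 CPM, Ache at 105, 66.3 and 43.0, Cd24a at 142, 97.0 and 69.9, and Amigo2 at 45.8, 27.4 and 19.5 in the same order. These 5 genes fell from cluster 5 to cluster 4 within 1 library, with intervals that did not overlap between those clusters. Cluster 5 held most late and early db/db cells and cluster 4 most control cells. The genes were chosen for being higher in db/db, so a fall is favoured by that choice. The share of all genes that fell likewise is not given here, and nothing is read from this count. In late db/db, Csn3 was instead higher in cluster 4 than in cluster 5. It stood at 115 CPM (93.0 to 141) in the 35 cells of cluster 4 and 71.2 CPM (67.8 to 74.7) in cluster 5. Tm4sf20, Ache, Cd24a and Amigo2 were lower in cluster 4 in late db/db too, Tm4sf20 on 3 UMIs. The Amigo2 intervals overlapped, at 48.3 CPM (34.4 to 66.1) in cluster 4 and 66.8 CPM (63.5 to 70.3) in cluster 5.

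The remaining 5 genes differed by less than 1.5-fold between the intervention clusters. Ankrd34b stood at 54.1, 51.5 and 47.8 CPM in clusters 5, 3 and 4, C1qtnf1 at 68.6, 81.0 and 76.1, and Slc5a10 at 19.5, 17.3 and 17.0. Cd81 stood at 416, 395 and 351 CPM and Serpina7 at 511, 482 and 366, both lower in cluster 4 beyond their counting intervals. Intervention cells of cluster 4 were far above the 2061 control cells of the same cluster for these genes, which had 0.521 CPM of Ankrd34b, 0.591 of C1qtnf1, 2.05 of Slc5a10, 40.3 of Cd81 and 9.52 of Serpina7. RNA free in the suspension was estimated to give 6.80 CPM of Ankrd34b and 10.5 CPM of C1qtnf1 in the intervention cells of cluster 4. Amigo2, by contrast, stood at 19.5 CPM (15.6 to 24.2) in intervention cells of cluster 4 and 20.01 CPM in control cells of that cluster. For Tm4sf20 the free RNA estimate was 3.57 CPM, within the interval of the 4.83 CPM measured (2.99 to 7.38).

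**Figure D4:**
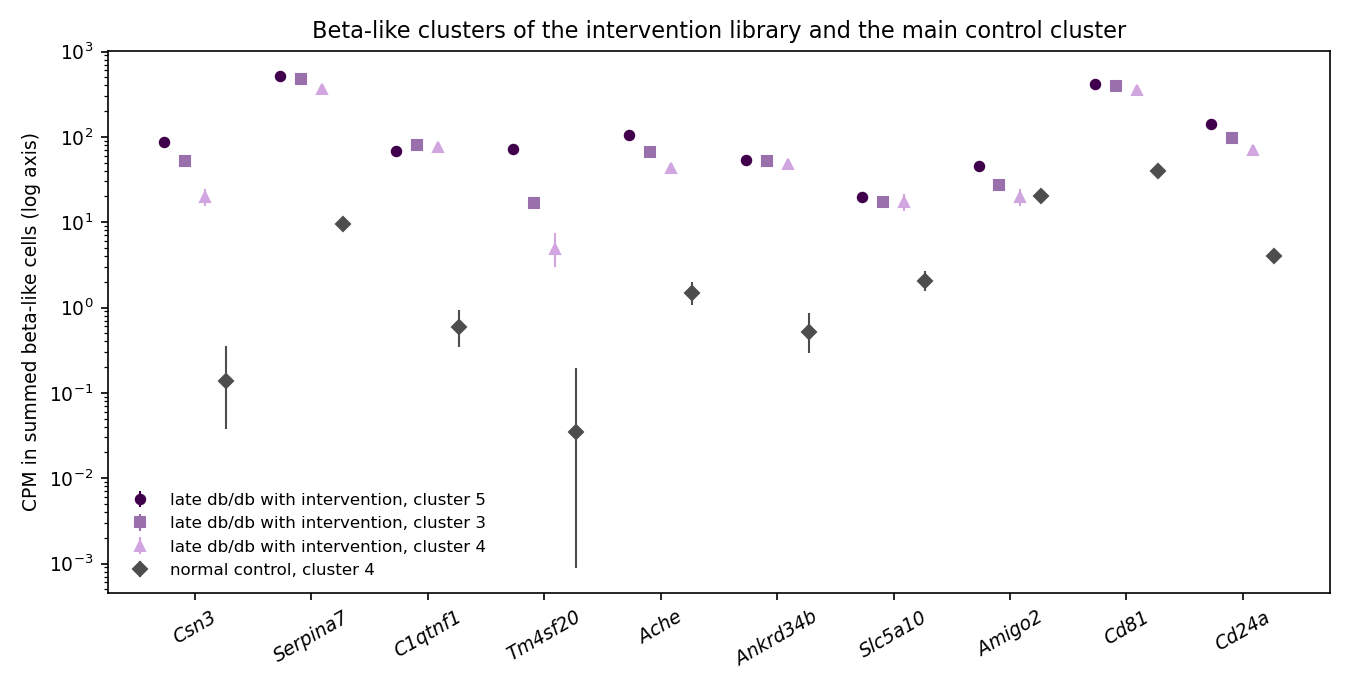
CPM on a log axis, with 95% counting intervals, in intervention cells of beta-like clusters 5, 3 and 4 and in control cells of cluster 4. Tm4sf20, Csn3, Ache, Cd24a and Amigo2 step down from cluster 5 to cluster 4, while Ankrd34b lies between 47.8 and 54.1 CPM in all 3 and at 0.521 CPM in the control.

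A small set of control cells fell in cluster 5 as well, 40 cells or 1.79% of control beta-like cells, with a median of 21690 UMIs. They held 268 CPM of Cd81 (222 to 320), 122 of Serpina7 (91.8 to 159) and 102 of Amigo2 (74.6 to 136), against 40.3, 9.52 and 20.01 CPM in control cells of cluster 4. Mafa stood at 372 CPM in them and 1111 CPM in cluster 4. Tm4sf20 and Ankrd34b had no UMI in these 40 cells, and Cck had none.

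Outside beta-like cells, the 10 genes were held by different cell types, and in delta-like cells 4 of them differed by less than 1.5-fold between the control and each db/db library. How many of all genes stayed within 1.5-fold in delta-like cells is not given here, so nothing is read from that count. The share of a library's UMIs that came from beta-like cells ran, with the intervention, from 70.6% for Cd24a to 97.9% for Slc5a10. In the control it was 2.46% for Cd24a, 4.56% for Ankrd34b, 5.35% for Ache and 9.25% for Cd81, so most control UMIs of these 4 genes came from other cells. A low share there is favoured by the choice of genes that were low in control beta-like cells. Free RNA was judged by the ratio of each gene to Ins2 in a class, divided by that ratio in beta-like cells of the same library, which is near 1 where both come from the same loose RNA.

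In the 3 db/db libraries, beta-like cells held 88.9% to 98.2% of the UMIs of Csn3, Tm4sf20 and Slc5a10. They also held 90.3% to 95.7% of those of Ankrd34b and 86.7% to 95.2% of those of Serpina7. In alpha-like cells, which make glucagon, Csn3 had 1.85 CPM with the intervention, 0 in late and 0.826 in early db/db and 0 in the control, with Ins2-scaled ratios of 0.868 and 1.09 where it was found. Slc5a10 had at most 0.688 CPM in alpha-like cells. Tm4sf20 stood at 8.94 CPM in early db/db duct-like cells, but its 26 UMIs came from 1.23% of 162 cells. In late db/db delta-like cells it stood at 12.9 CPM, with 25 UMIs in 5.97% of 134 cells, and the 13.2 CPM of Slc5a10 in early db/db delta-like cells came from 2.91% of 309 cells. C1qtnf1 was also held by pericyte-like cells, at 69.1 CPM with the intervention, 66.3 in early db/db and 28.2 in the control, the last on 9 UMIs, and by fibroblast-like cells at 29.5 to 38.3 CPM.

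Delta-like cells, which make somatostatin, held Ache, Cd24a, Cd81 and Amigo2 in all 4 libraries. Ache stood there at 140 CPM with the intervention, 124 in late and 136 in early db/db and 122 in the control. Cd24a stood at 488, 655, 636 and 561 CPM, Cd81 at 473, 463, 656 and 443, and Amigo2 at 56.0, 65.6, 55.6 and 45.4. The log2 ratios to control in delta-like cells lay between -0.20 (Cd24a with the intervention) and 0.57 (Cd81 in early db/db) for these 4 genes and 3 libraries. In beta-like cells the late db/db ratios of the same genes were 1.57 to 5.91. The genes were chosen by those beta-like levels, so the difference between the classes is favoured by that choice. Sst took at most 0.0165% of beta-like UMIs, and its share was higher with the intervention and in early db/db, and lower in late db/db, than in control beta-like cells.

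Ankrd34b, chosen for its higher level in db/db beta-like cells, was at least 2-fold lower in db/db than in control delta-like cells. In delta-like cells it stood at 13.2 CPM with the intervention (8.34 to 19.7), 10.8 in late db/db (6.71 to 16.6), 9.33 in early db/db (5.85 to 14.1) and 58.8 in the control (52.4 to 65.9), on 23, 21, 22 and 303 UMIs. One of its UMIs was found in 5.69%, 7.46%, 5.18% and 33.3% of these cells, and after thinning to 3000 UMIs in 1.89%, 0.763%, 1.003% and 9.15%. The log2 ratio to control was -2.16 (-2.84 to -1.55) with the intervention, -2.44 (-3.15 to -1.80) in late db/db and -2.66 (-3.35 to -2.03) in early db/db. In delta-like cells of these 3 comparisons 1 of the 5, 5 and 6 genes that entered was at least 2-fold lower, where 0.894%, 0.878% and 1.61% of all genes that entered were lower. The ratio to Ins2 was 4.13, 2.69 and 1.76 times that of beta-like cells in the db/db libraries, and the part of free beta-cell RNA in the UMIs left there was not tested. After subtraction of estimated free RNA the levels were 10.3, 10.6, 8.45 and 63.1 CPM. In alpha-like cells Ankrd34b had 12, 4, 9 and 0 UMIs.

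Serpina7 was higher in alpha-like cells of the db/db libraries too. It stood at 62.3 CPM with the intervention, 89.8 in late and 92.5 in early db/db and 19.5 in the control. The log2 ratios to control were 1.68 (1.41 to 1.94), 2.20 (1.94 to 2.47) and 2.25 (2.03 to 2.46). It was the 1 of 2 genes that entered to be at least 2-fold higher, where 1.31%, 1.48% and 2.27% of genes were. Its ratio to Ins2 was 27.4 times that of beta-like cells in late db/db and 19.4 times in early db/db, but 3.46 times with the intervention, and after subtraction of estimated free RNA the log2 ratio of the intervention to control was 0.38. A cluster led by Ppy and Pyy, genes of islet peptide hormones, and left without a class name held 284 CPM with the intervention and 65.7 in the control. In delta-like cells of early db/db the 124 CPM of Serpina7 came from 3.68% of thinned cells, fewer than the 8.71% with the intervention at 44.6 CPM, and no order is read from it.

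**Figure D5:**
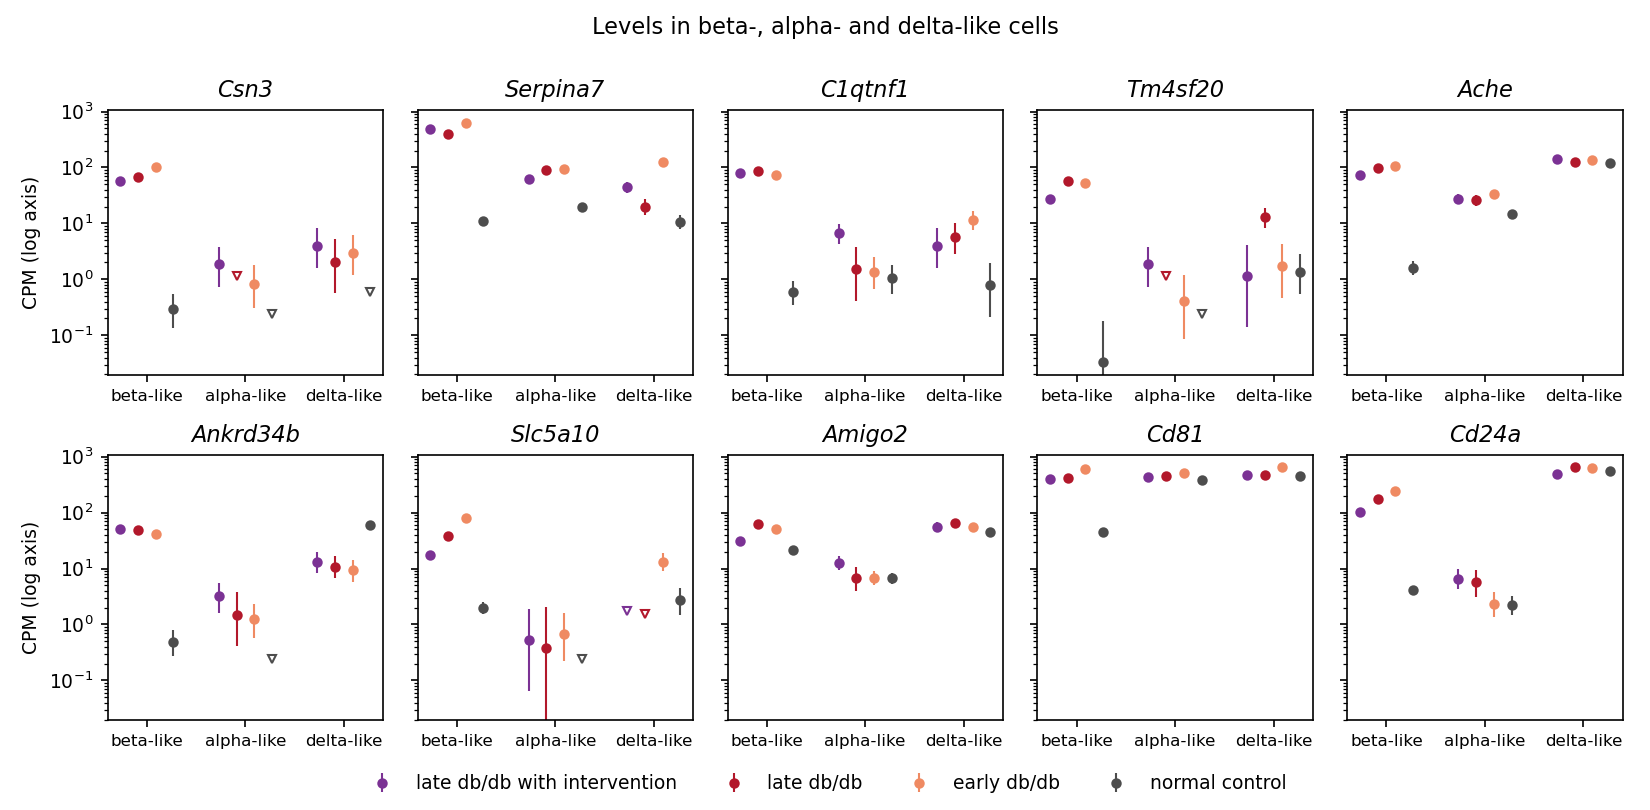
CPM on a log axis in beta-, alpha- and delta-like cells, 1 panel per gene, with 95% counting intervals and libraries in the order late db/db with intervention, late db/db, early db/db and normal control. Open triangles mark 0 UMIs, drawn at the level of 3 UMIs; Ache, Amigo2, Cd81 and Cd24a differ by less than 1.5-fold from the control in delta-like cells, and Ankrd34b is highest in control delta-like cells.

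Cd81 and Cd24a were also held by cells outside the islet endocrine lineage. Cd81 was above 1000 CPM in control endothelial-, macrophage- and pericyte-like cells, at 1693, 1179 and 1048 CPM, and at 1266 CPM in early db/db duct-like cells. Cd24a stood in endothelial-like cells at 618 CPM with the intervention, 278 in late and 521 in early db/db and 962 in the control, and in B-like cells, where it is a known surface mark, at 185 CPM in late and 189 in early db/db. Both genes were over 2-fold lower in late db/db endothelial-like cells than in control ones, Cd81 at a log2 ratio of -1.10 (-1.20 to -1.003) and Cd24a at -1.79 (-1.96 to -1.63), 2 of the 2 that entered, where 8.99% of genes were. That class held 44 cells of 2 clusters found in late db/db alone, one led by Lyve1 and one by Glycam1. In the cluster shared by all libraries, with 80 late db/db and 205 control cells, the ratios were -0.24 for Cd81 (-0.36 to -0.13) and -0.80 for Cd24a (-0.98 to -0.62). Cd24a stood there at -0.64 with the intervention and -0.88 in early db/db. At the finer clustering resolution of 2, an endothelial-like cluster held 166 control cells, 2 intervention cells and 0 cells of late and early db/db. Whether the shared cluster compares like cells was therefore not tested.

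Acinar-like cells of early db/db appeared to hold all 10 genes, but 262 of the 394 cells belonged to a cluster in which insulin took 45.9% of UMIs. There the ratio of each gene to Ins2 was 0.587 to 1.27 times that of beta-like cells. In the 132 cells of the other acinar cluster, 8 of the 10 genes were at or under 5.89 CPM, and Cd81 and Cd24a stood at 32.1 and 52.3 CPM.

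Relatives and partners of the 10 genes were read from 13 lists holding 175 genes, all measured but Srp54a. Of the 30905 genes counted, 4188 entered the comparison of late db/db with control, so how many relatives entered is not read as a result. In late db/db over control beta-like cells, 2 of 11 casein and milk genes entered and both were lower: Prlr, the prolactin receptor gene, at -1.14 and Socs2, a target of that receptor, at -1.77. Of 16 clade A serpins, 16 C1q and TNF related genes and 4 other TM4SF genes, 1 each entered, Serpina10 at -0.12, C1qtnf4 at -0.43 and Tm4sf4 at -0.14. None of the 11 other SLC5 transporters or the 2 other Ankrd34 genes entered, and of 17 cholinergic genes the choline transporter gene Slc44a1 alone did, at -1.43. Of 18 leucine-rich repeat adhesion genes 2 entered, Lrrn1 at -1.14 and Lrfn3 at -0.60. Over all genes that entered this comparison, the median log2 ratio was -0.30. The share of them at least 2-fold lower is not given here, so nothing is read from the lower values.

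Genes that work beside the members gave a mixed picture in the same comparison, in which 4.47% of all genes that entered were at least 2-fold higher. Of the tetraspanins and CD81 partners, 11 of 30 entered, with a median of 0.38 against -0.30 over all genes, and Cd63 stood at 0.53. The 1 of 11 at least 2-fold higher was Tspan15 at 1.36, named after its value was seen. Of the thyroid hormone genes 3 of 11 entered: Ttr, another thyroxine carrier, at 1.55, the deiodinase gene Dio1 at 0.53 and the transporter gene Slc16a10 at -0.58. Of 16 genes of CD24 partners and GPI-anchored proteins 5 entered and 2 were at least 2-fold higher, Cd59a at 2.93 and Gpc4 at 1.03, while Ly6e stood at 0.87 and Prnp at -0.55. Of 8 genes of GPI anchor transfer and later processing 4 entered, Gpaa1 at 0.94, Pigk at 0.55, Pigt at -0.20 and Pgap1 at -1.12. Of the genes of signal peptide handling and entry into the secretory pathway, 14 of 15 entered, all that were measured, with a median of 0.45. The 2 of 14 that were at least 2-fold higher were Sec11c, of the signal peptidase, at 1.71 and Ssr4, of the translocon, at 1.32.

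Genes with the most similar levels over 39 sums of class and library, among 8762 genes, are given with Pearson's r of log2(CPM+1). Csn3 and Tm4sf20 were most like Gast, the gastrin gene, at 0.88 and 0.86, and Slc5a10 was most like Cartpt at 0.84. Serpina7 was most like Gc at 0.93, C1qtnf1 like Scarf2 at 0.87, Ache like Rgs9 at 0.88 and Ankrd34b like Arhgap36 at 0.89. Amigo2, Cd81 and Cd24a were most like Filip1 at 0.89, Rhob at 0.86 and Proser2 at 0.68. The 39 sums share 4 libraries and their free RNA. They also include the beta-like levels by which the genes of this group were chosen. A gene high in db/db beta-like cells alone is like them by that choice, and nothing is read from these r. Over the 754 thinned late db/db beta-like cells, the best r among 5016 genes ran from 0.13 for Ankrd34b to 0.28 for Serpina7, whose nearest gene was again Gc, and Csn3, Tm4sf20 and Slc5a10 were in too few cells for this ranking.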

How the data were processed

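The deposited matrices hold UMI counts per gene and barcode, made by the authors, as whole numbers without normalization, written by Cell Ranger software version 3.0.0 per the file headers. The submitters' processing notes name mm10, CASAVA 1.8, Cell Ranger and Seurat. The annotation used and the strand setting are not given in the sources used here. Library totals were 157952234 UMIs with the intervention, 120934779 in late and 125498999 in early db/db and 166034254 in the control. Every barcode held at least 500 UMIs.

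Cells had at least 1000 UMIs, 500 genes and at most 20% mitochondrial UMIs. Scrublet's own threshold marked 5 of 5115 intervention cells (0.0978%), so the highest scores were removed at 0.8% per 1000 cells. Cells were clustered together with scanpy 1.11.5 and Leiden (igraph 0.11.9): 2000 variable genes without hormone, mitochondrial, ribosomal protein genes and the 10 genes, 30 components, 15 neighbours and resolution 1. A cluster took the class with most markers among its 25 leading genes. It stayed unnamed with under 3 raised markers, or when another class or cell cycle genes led it. Names rest on these rebuilt clusters.

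Each library is 1 sample, so no test was run. Ratios carry exact conditional binomial intervals, CPM exact Poisson and shares exact Clopper-Pearson intervals, all 95%. Free RNA was estimated from insulin UMIs in macrophage- and endothelial-like cells (12.7%, 2.36%, 6.57% and 12.8% of the library pool of the intervention, late db/db, early db/db and control libraries). Levels in other classes need 50 cells and ratios 100 cells in both libraries. Named from each related list were the entered genes, at most the 4 with the highest CPM in any library, and for likeness the rule took the 3 genes with the highest r, of which the first is printed. The genes and lists were chosen with earlier results of these data known. The calculations were checked on simulated data. TMM factors came from edgeR 4.0.16. Positions are from GENCODE M21 (GRCm38), which held 30766 of the 30905 gene identifiers.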

Additional observations from a re-analysis of the deposited data

Results flagged for a closer look

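Some genes moved opposite ways in beta-like and another class of cells against the control. With 1 library per group these differences were not tested. The genes were chosen for high levels in db/db beta-like cells. Any fall in another class is therefore opposite by that choice, and nothing is read from the contrast. In beta-like cells, Ankrd34b stayed under 50 CPM in the late and early db/db comparisons with the control and did not enter them. Ankrd34b had log2 ratios to the control in delta-like cells of -2.16 with the intervention, -2.44 in late db/db and -2.66 in early db/db, against 6.72, 6.67 and 6.43 in beta-like cells. Under the 7 alternatives run for each, its delta-like ratio ran from -2.97 to -2.16 with the intervention, from -3.86 to -2.36 in late db/db and from -3.47 to -2.65 in early db/db. Cd81 stood in late db/db endothelial-like cells at -1.10, against 3.21 in beta-like cells, and Cd24a at -1.79, against 5.41. In the endothelial cluster that all 4 libraries share, the late db/db ratios were -0.24 and -0.80. A finer clustering put most control endothelial-like cells in a cluster without late db/db cells, so like cells may not be compared there either.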

How the results depend on the processing

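No paired analysis was possible because each group has 1 library, and for the same reason no replicate could be left out. No ratio of 2-fold or more changed direction under any alternative. With all UMIs as denominator, 3, 3 and 2 of the genes were higher by 2-fold or more in late db/db, early db/db and intervention over control, and 0 and 0 were lower in late over early db/db and in intervention over late db/db. With this denominator fewer genes reach 50 CPM, and the Slc5a10 ratio of late to early db/db was -0.86, under 2-fold. A minimum of 100 CPM gave 3, 5 and 3 higher and 0 and 0 lower, by its own construction. At 1.5-fold, 3 genes were lower in late over early db/db, and at 4-fold 0 and 0 were lower in the last 2 comparisons. The sign of 2 small ratios depended on the denominator: with all UMIs Ache in late over early db/db was 0.06 and Ankrd34b in intervention over late db/db was -0.15. All UMIs as denominator moved every beta-like log2 ratio to control by 0.67 (late db/db), 0.47 (early db/db) and 0.46 (intervention), TMM by 0.32, 0.34 and 0.28, and median-of-ratios factors by 0.30, 0.32 and 0.25. Subtracting free RNA left 0 in control beta-like cells for 5 genes, whose ratios to control then had no value. Defining beta cells by insulin share lowered the late db/db to control ratios by over 1.5-fold for 5 genes: 8.51 for Tm4sf20, 5.04 for Ache, 5.67 for Ankrd34b, 2.54 for Cd81 and 3.77 for Cd24a. Taken as a mean over cells, the Slc5a10 ratio of intervention to late db/db was -0.84. The Serpina7 ratio of intervention to control in alpha-like cells ran from 0.38 with free RNA subtracted to 2.59 without doublet removal. Restricting endothelial-like cells to the shared cluster, and acinar-like cells to the cluster with little insulin, were choices made after seeing the data. Depth limits the control levels of Csn3, Ankrd34b and Tm4sf20, which rest on 9, 15 and 1 UMIs.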
